A study of Homo sapiens with 2 samples.

Results

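The genes described here are 55 genes of DNA damage signalling and repair. They were listed by their function, but with earlier results of these data known. Of these, 51 had at least 1 probe set paired with them alone in the annotation of the array, out of 19775 genes in all, and BRCA2, PMS2, FANCA and FANCD2 were not analysed here. Gene expression was measured on Affymetrix HG-U133 Plus 2.0 arrays in SU-DHL-1 cells, a long-established line from an anaplastic large cell lymphoma (ALCL), which express the NPM1-ALK fusion. The cells were electroporated with siRNA targeting HLX, an NKL homeobox gene (siHLX), or with a negative control siRNA (siCTR), and both were harvested after the same time in culture. There was 1 array per siRNA, so no replicate error exists, no test between the groups could be run, and each difference describes these 2 arrays. The RNA came from cells given an siRNA, which is meant to reduce its target and does not remove it. HLX read 7.70 on the siHLX array and 8.15 on the siCTR array, a log2 difference of -0.45 on its only probe set. Of all genes above the level threshold given below, 9.09% were at least 20% lower on the siHLX array. The ALCL markers TNFRSF8 (CD30), ALK, GZMB, PRF1, BATF3 and IL2RA all lay above the level threshold, with siHLX readings from 9.79 to 13.41. Of markers of other cells, CD14 and LYZ of myeloid cells and MS4A1 of B-cells lay below it, and CD79A of B-cells lay above it with 6.81 on the siHLX array and 6.57 on the siCTR array.

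Cells answer DNA damage with sensor kinases, which halt the cell cycle, and with repair pathways that differ by lesion. Homologous recombination and end joining rejoin broken strands, mismatch repair corrects replication errors, excision repair removes damaged bases or nucleotides, and the Fanconi pathway unhooks crosslinks. Lymphoid cells also use these enzymes on purpose: end joining seals the breaks of antigen receptor rearrangement, and uracil excision and mismatch repair diversify antibody genes in B-cells. Many repair genes are transcribed with the cell cycle through E2F factors, which bind short words in promoters.

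Such words were therefore sought in the promoters of the members. They were TTTCCCGC, TTTCGCGC, TTTGCCGC and TTTGGCGC on both strands, some of which overlap each other's reverse complements, in windows from 250 bases before to 50 bases after each gene start. Of the 45 measured members with a promoter in the RefSeq table (GRCh38.p14), 9 held such a word, which is 20%, against 6.63% of the 9825 genes above the level threshold and 3.99% of all 27305 genes with a promoter there. The stretches around the words are shown so that they can be set against the readings of their genes. Each is written along the strand of its gene, with the word or its reverse complement in capitals.
EXO1 (chr1:241848197-241848226, plus strand): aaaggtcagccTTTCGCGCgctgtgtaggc
MSH3 (chr5:80654536-80654565, plus strand): gcggtcaagTTTGGCGCGAAAttgtggccg
MSH6 (chr2:47783137-47783166, plus strand): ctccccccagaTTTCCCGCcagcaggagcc
UNG (chr12:109098098-109098127, plus strand): gagggaggtttTTTGCCGCgaaaagaccac
XRCC2 (chr7:152676102-152676131, minus strand): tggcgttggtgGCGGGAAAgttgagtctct
LIG1 (chr19:48170440-48170469, minus strand): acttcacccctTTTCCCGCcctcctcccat
FANCC upstream word (chr9:95317863-95317892, minus strand): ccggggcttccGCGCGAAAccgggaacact
FANCC second word (chr9:95317737-95317766, minus strand): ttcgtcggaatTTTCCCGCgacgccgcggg
XPC (chr3:14178824-14178851, minus strand): cctgcgcccTTTCCCGCctctcgcgaga
XRCC6 (chr22:41621326-41621344, plus strand): gtcgcttccctGCGCCAAA

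In MSH3 the capitals hold a pair of overlapping words, one on each strand. A match is a description of the letters and not a binding site, and the absence of a match says only that these letters are not in the window.

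Every measured repair gene was read above the level threshold, the median log2 intensity of all probe sets (4.865). By the same rule 12135 of all 19775 genes were read above it. The siHLX and siCTR readings of the members lay close together. The members' brightest probe sets had a median of 8.53 on the siHLX array and 8.63 on the siCTR array, and ranged from 5.08 to 12.41 with siHLX and from 5.0 to 12.42 with siCTR. Probe sets bind with different strength, so these levels are not an order of the genes. Each difference below is the log2 value with siHLX minus that with siCTR, and a gene was read by its brightest probe set unless others are named.

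**Figure D1:**
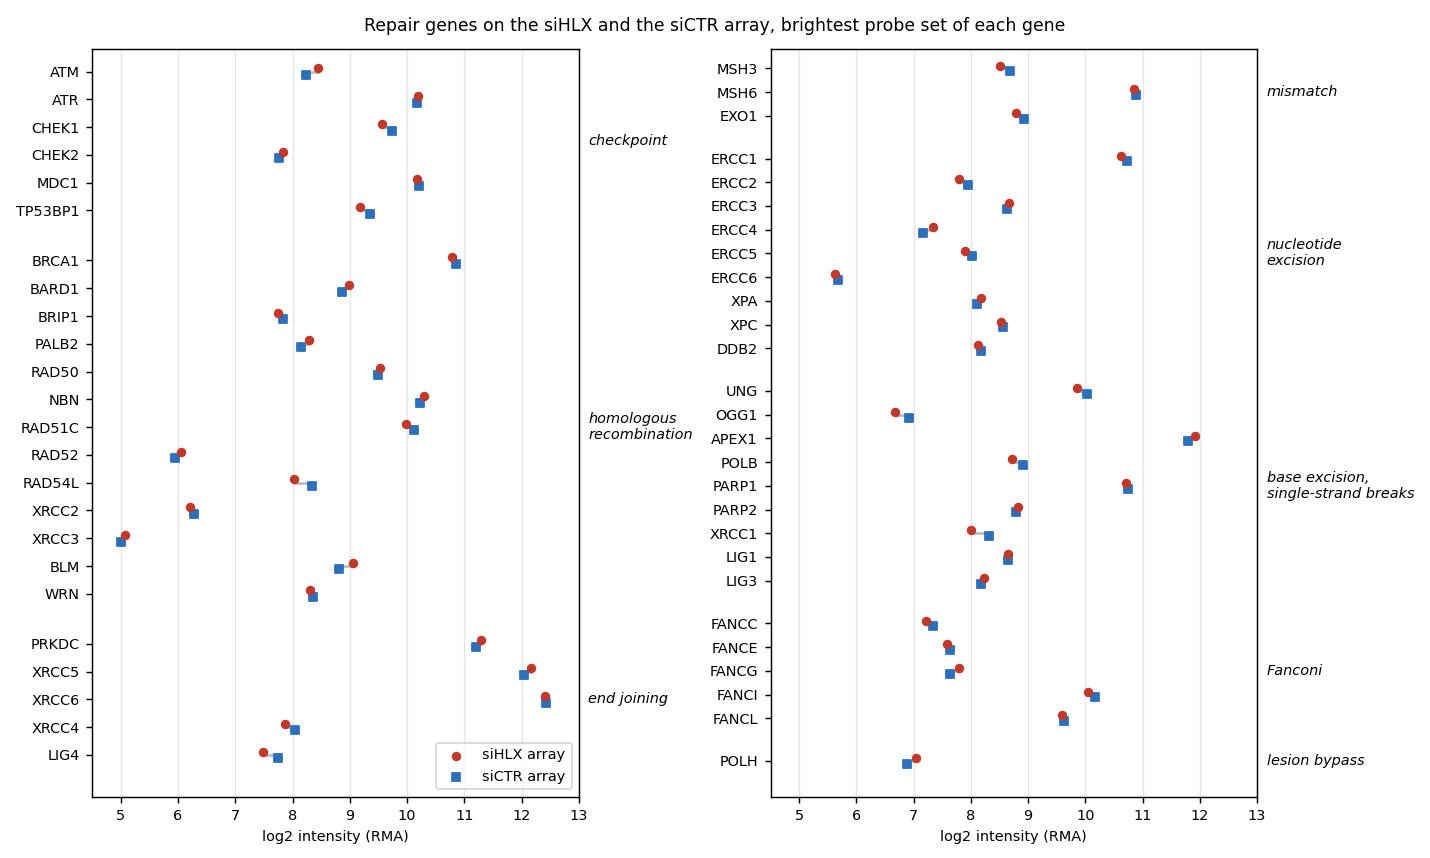
Log2 intensity (x axis) of the 51 measured repair genes (y axis, ordered by function) on the siHLX array (red circles) and the siCTR array (blue squares), each gene by its brightest probe set; grey lines join both readings. The readings of a gene lie within 0.32 log2 units of each other, from XRCC1 at -0.32 to BLM at 0.25.

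Relative to the bulk of genes, 30 of the 51 members were lower on the siHLX array (58.8%), 20 were higher (39.2%) and LIG1 was equal, and scaling to equal spike controls (poly-A transcripts added before labelling), which adds the same amount to every gene, left 2 of 51 below 0 (XRCC1 and RAD54L). Over all 12135 genes above the threshold 50.1% were lower and 47.4% higher. The median difference of the members was -0.03, that of all genes -0.01, and the members ranged from -0.32 to 0.25. A limit of 0.322 log2 units, that is 25% higher or 20% lower, was used to count larger differences. It was reached by 0 of 51 members in either direction, compared with 9.09% of all genes downwards and 8.98% upwards. XRCC1, at -0.32, lay just inside it.

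Differences were smaller among bright genes, and most members are bright, so the members were also set against genes of similar brightness. Of the 7526 genes at or above the 75th percentile of level (7.095), 3.49% reached this limit downwards and 3.07% upwards, again against 0 of the 45 members in this range. Of these 45 members 27 were lower and 17 higher, against 51.1% and 46.4% of all genes there. The SD of the difference over genes was 0.14 for these members and 0.17 for all genes at that level. A smaller limit of 0.2 log2 units, chosen after the values were seen, was passed downwards by 5 of 51 members (XRCC1, RAD54L, LIG4, OGG1 and POLB) and upwards by 2 (BLM and ATM), against 18.5% and 17.5% of all genes. Above the 75th percentile these counts were 4 and 2 of 45, against 11.9% and 10.2%. The members' shares past both limits lay below those of all genes, and no member stood out by size.

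**Figure D2:**
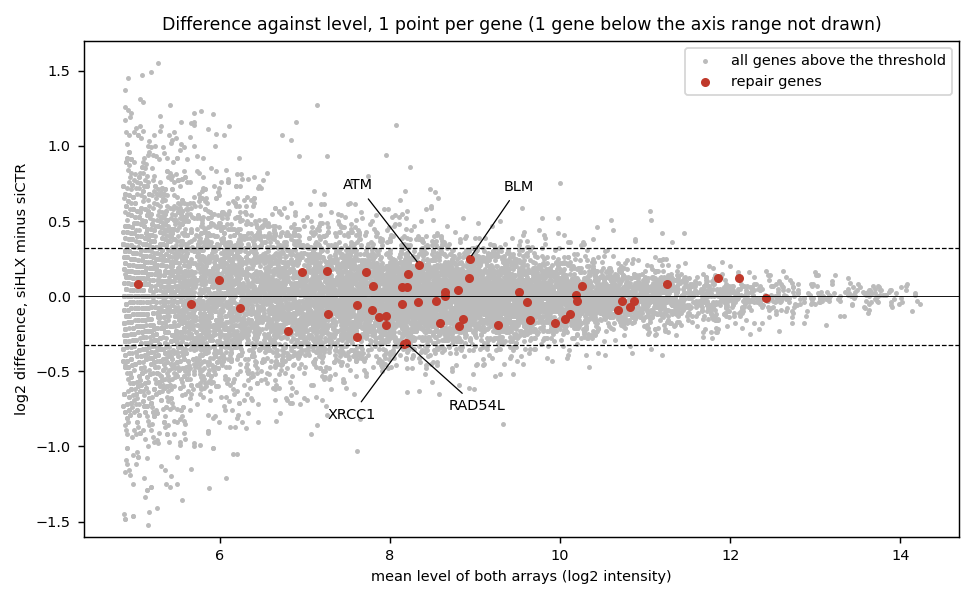
Log2 difference, siHLX minus siCTR (y axis), by level (x axis, mean log2 intensity over the siHLX and siCTR arrays), each point a gene; red points are the 51 measured repair genes, grey points all genes above the level threshold, and dashed lines mark 0.322 log2 units. All repair genes lie between the dashed lines, and 1 gene of the grey cloud lies below the drawn range.

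Many members were read by several probe sets on the same 2 arrays. Their spread is one between probe sets and takes the place of no replicate array. Of the 26 members for which 2 or more probe sets lay above the threshold, 8 were lower on all of them, 3 were higher on all and 15 were mixed. The same sign was thus seen in 42.3% of these members, compared with 37.1% of the 5869 genes of this kind over the whole array. Pooled over genes, the SD between probe sets was 0.21 for the members and 0.27 for the whole array. Most of the differences below thus lie inside the spread between probe sets of 1 gene. The members lower on all were MDC1, TP53BP1, BRCA1, BRIP1, XRCC4, LIG4, ERCC6 and FANCI, and those higher on all were NBN, PRKDC and XRCC5.

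**Figure D3:**
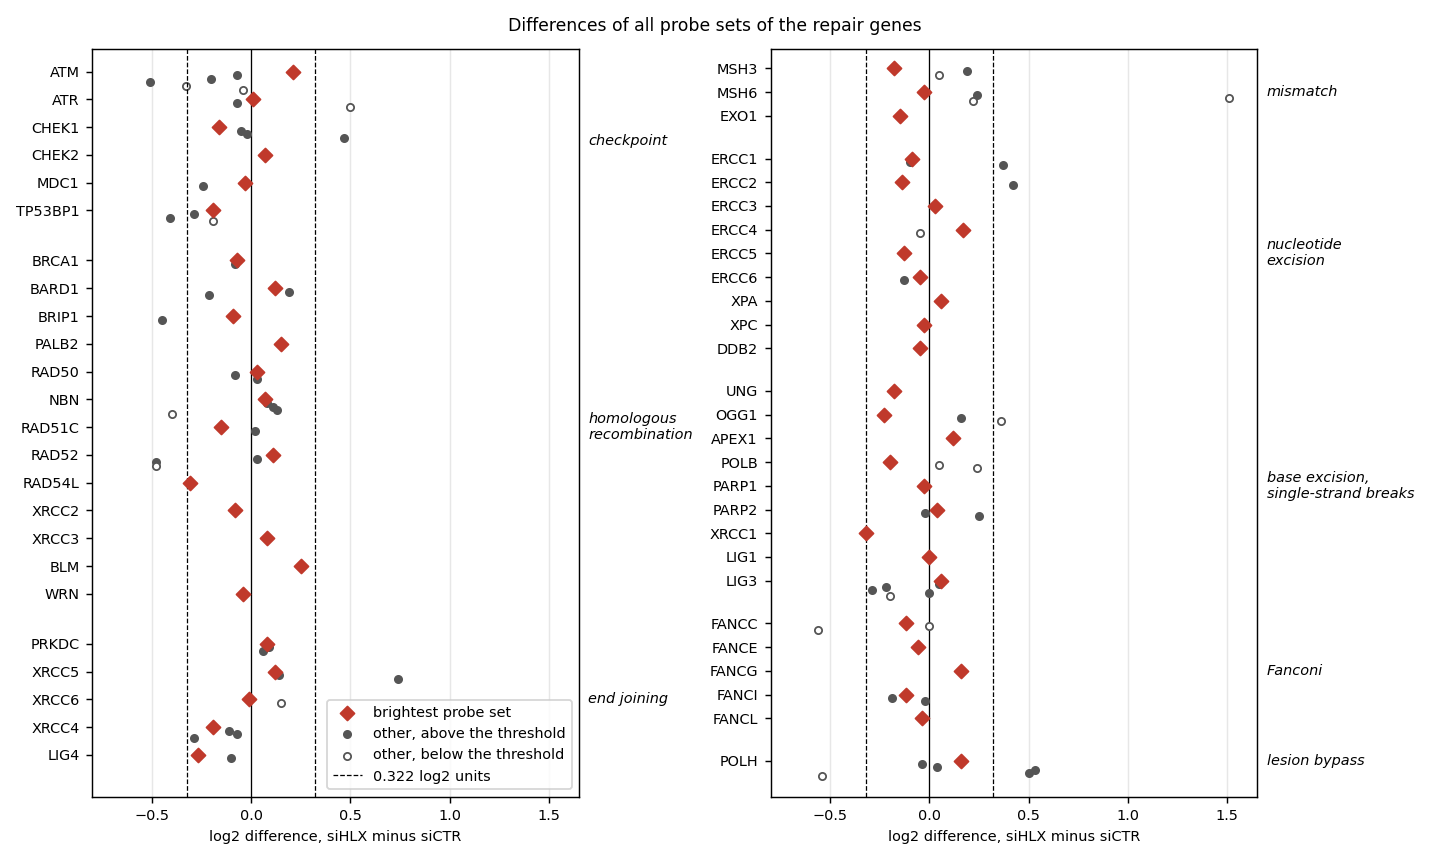
Log2 difference, siHLX minus siCTR (x axis), for all 118 probe sets of the 51 measured repair genes (y axis, ordered by function, with probe sets of a gene set slightly apart); red diamonds are the brightest probe sets, filled grey circles mark dimmer probe sets still above the level threshold, and open circles any below. The brightest probe sets stay inside the dashed lines at 0.322 log2 units, while dimmer ones spread to -0.56 for FANCC and 1.51 for MSH6.

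The checkpoint genes went both ways, with 3 of 6 higher and 3 lower and a median of -0.01. ATM, the kinase that responds to broken ends, read 8.45 with siHLX and 8.24 with siCTR on its brightest probe set, a difference of 0.21. The other readings above the threshold were negative, at -0.07, -0.20 and -0.51, so the brightest reading alone gives no direction for ATM. ATR, the kinase of stalled replication forks, read 10.19 with siHLX and 10.18 with siCTR, and its second probe set gave -0.07. The downstream kinases followed the same pattern of small readings. CHEK1, the effector of ATR, read 9.57 with siHLX and 9.73 with siCTR, a difference of -0.16, with -0.05 and -0.02 on other bright probe sets and 0.47 on a dim one. CHEK2, the effector of ATM, read 7.83 with siHLX and 7.76 with siCTR on its only probe set.

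The transcripts of TP53BP1 and MDC1, mediators that gather at broken DNA, were lower on every probe set above the threshold. The pair was not a group set beforehand, and the checkpoint genes as a whole went both ways. Of other genes acting at broken DNA, RNF8 had -0.12, RNF168 0.30 and RIF1 0.10. With equal spike controls the brightest TP53BP1 reading was 0.10, beside 0.28 for the median of all genes. TP53BP1, which shields ends from resection, read 9.17 with siHLX and 9.36 with siCTR on its brightest probe set, and the others gave -0.29 and -0.41. Its mean over 3 probe sets was -0.30 (SD between probe sets 0.11), and a probe set below the threshold read -0.19. For the brightest reading, 12.4% of all named probe sets at a level within 0.5 of its own were at least as low. MDC1, the scaffold that binds the phosphorylated histone mark, read 10.18 with siHLX and 10.21 with siCTR, and its dimmer probe set gave -0.24.

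Homologous recombination genes had a median of 0.03, with 7 of 13 measured members higher and 6 lower. BRCA1, the ubiquitin ligase that promotes resection, read 10.78 with siHLX and 10.85 with siCTR, and its second probe set gave -0.08. Its partner BARD1 read 8.99 with siHLX and 8.87 with siCTR, and its other probe sets gave 0.19 and -0.21. PALB2, the bridge that loads the recombinase, was 0.15 higher at 8.29 with siHLX and 8.14 with siCTR. The BRCA1 complex therefore held members on both sides of 0. The helicase BRIP1, like BRCA1, was lower on both of its probe sets, with 7.74 for siHLX and 7.83 for siCTR on the brighter and 6.28 and 6.73 on the dimmer. Its mean difference was -0.27 (SD between probe sets 0.25, 2 probe sets).

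The ends are first bound and trimmed by a complex that includes RAD50 and NBN. NBN, its signalling subunit, was higher on all 4 probe sets above the threshold, with differences of 0.07, 0.08, 0.11 and 0.13. Their mean was 0.10 (SD between probe sets 0.03), though the brightest read only 10.29 with siHLX and 10.22 with siCTR. A probe set of NBN below the threshold read -0.40. RAD50, the zinc-hook ATPase, read 9.53 with siHLX and 9.50 with siCTR, and its others gave -0.08 and 0.03. The small and even readings of NBN were the tightest of any member read by 4 or more probe sets above the threshold. All 4 have the suffix _s_at or _x_at, and the NBN probe set at -0.40 is the only one without it.

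Among the genes of strand exchange, RAD54L and BLM lay farthest apart. RAD54L, the translocase that helps the recombinase search for homology, read 8.03 with siHLX and 8.34 with siCTR, a difference of -0.31, and 5.73% of named probe sets near its level were at least as low. BLM, the helicase that dissolves joint molecules, read 9.06 with siHLX and 8.81 with siCTR, a difference of 0.25, and 6.81% were at least as high. Each rests on 1 probe set, so no second reading bears on either. The RecQ helicase WRN had -0.04, and of the recombinase paralogs RAD51C had -0.15 and 0.02, XRCC2 -0.08 and XRCC3 0.08. RAD52, an annealing factor, read 6.05 with siHLX and 5.94 with siCTR on its brightest probe set, and its others above the threshold gave 0.03 and -0.48.

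End joining genes divided by complex. The subunits of the DNA-dependent protein kinase, which cap broken ends, read -0.01 or higher, with the Ku subunit XRCC5 at 12.16 with siHLX and 12.04 with siCTR. Its 3 probe sets gave 0.12, 0.14 and 0.74, the last at a level near 6, with a mean of 0.33 (SD between probe sets 0.35). The catalytic subunit PRKDC read 11.29 with siHLX and 11.21 with siCTR, and its 3 probe sets lay between 0.06 and 0.09. The other Ku subunit XRCC6 read 12.41 with siHLX and 12.42 with siCTR. The ligation complex that seals the ends was lower on every probe set above the threshold. LIG4, the ligase, read 7.48 with siHLX and 7.75 with siCTR, a difference of -0.27, with -0.10 on the second probe set. Its scaffold XRCC4 read 7.86 with siHLX and 8.05 with siCTR, and its 4 probe sets gave -0.19, -0.11, -0.07 and -0.29. With equal spike controls the readings were 0.02 for LIG4 and 0.10 for XRCC4, beside 0.41 for XRCC5, 0.37 for PRKDC and 0.28 for the median of all genes. The difference between these complexes was seen after the values were known, and with 1 array per group it was not tested.

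The 3 measured mismatch repair genes were all lower by their brightest probe sets relative to other genes, with a median of -0.15, but the direction did not hold over probe sets. EXO1, the exonuclease of the pathway, read 8.78 with siHLX and 8.93 with siCTR on its only probe set. MSH3, which recognises small loops, read 8.50 with siHLX and 8.68 with siCTR, and 0.19 on its second probe set. MSH6, which recognises mispaired bases, read 10.85 with siHLX and 10.88 with siCTR, and 0.24 on its second probe set. Averaged over probe sets above the threshold, the median of the group was 0.005. With equal spike controls the median by the brightest probe sets was 0.14, beside 0.28 for all genes, since that scaling adds the same amount to every gene. The most distant reading of any repair probe set also belonged to MSH6, with 4.69 for siHLX and 3.18 for siCTR, but it lay below the level threshold and the other dim probe set gave 0.22.

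Nucleotide excision repair genes had a median of -0.05, with 6 of 9 lower and 3 higher. The damage sensors of the pathway were nearly equal on both arrays: XPC had -0.03, DDB2 -0.05 and XPA 0.06. The nucleases differed in sign, with ERCC4 at 7.34 with siHLX and 7.17 with siCTR, a difference of 0.17, and ERCC5 at 7.89 with siHLX and 8.02 with siCTR, a difference of -0.13. ERCC1, the partner of ERCC4, had -0.09 and -0.10 on its bright probe sets and 0.37 on a dimmer one. The helicases of the general transcription factor that opens the helix were ERCC3, at 0.03, and ERCC2. For ERCC2 the probe sets disagreed, with 7.80 for siHLX and 7.94 for siCTR on the brighter and 7.53 and 7.11 on the other. ERCC6, which acts where RNA polymerase stalls, gave -0.05 and -0.13. Averaged over probe sets, the median of the group was 0.03.

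Genes of base excision and single-strand break repair had a median of -0.03, with 5 of 9 lower, 3 higher and LIG1 equal. XRCC1, the scaffold of single-strand break repair, had the most negative difference of all members, at 8.0 with siHLX and 8.32 with siCTR, and 5.10% of named probe sets near its level were at least as low. Its ligase partner LIG3 read 8.23 with siHLX and 8.17 with siCTR, and its 5 probe sets above the threshold ran from -0.29 to 0.06. The gap-filling polymerase POLB read 8.71 with siHLX and 8.91 with siCTR, a difference of -0.20. The partners of XRCC1 were thus not uniformly lower. Of the glycosylases, which cut out damaged bases, UNG read 9.85 with siHLX and 10.03 with siCTR, a difference of -0.18, while OGG1 read 6.68 with siHLX and 6.91 with siCTR on its brighter probe set and 0.16 on the other. The endonuclease APEX1 was higher, at 11.92 with siHLX and 11.80 with siCTR, and 8.89% of named probe sets near its level were at least as high. The polymerases of ADP-ribose were close to 0, with PARP1 at 10.71 with siHLX and 10.74 with siCTR, and PARP2 at 0.04, -0.02 and 0.25. LIG1, the replicative ligase, read 8.65 on both arrays.

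Of the Fanconi genes 4 of 5 measured members were lower and the median was -0.06. FANCI, part of the pair that clamps onto crosslinked DNA, was lower on its 3 probe sets, at 10.05 with siHLX and 10.17 with siCTR on the brightest and at -0.19 and -0.02 on the others. FANCC, of the core complex, read 7.21 with siHLX and 7.33 with siCTR. The ubiquitin ligase FANCL and the core subunit FANCE had -0.04 and -0.06. FANCG, another core subunit, was higher at 7.80 with siHLX and 7.64 with siCTR, so the core complex held both signs. POLH, the polymerase that copies past ultraviolet lesions, stood apart from these pathways and read 7.04 with siHLX and 6.88 with siCTR. Its 5 probe sets above the threshold gave 0.16, -0.04, 0.04, 0.53 and 0.50, a mean of 0.24 (SD between probe sets 0.26). A probe set below the threshold gave -0.54.

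**Figure D4:**
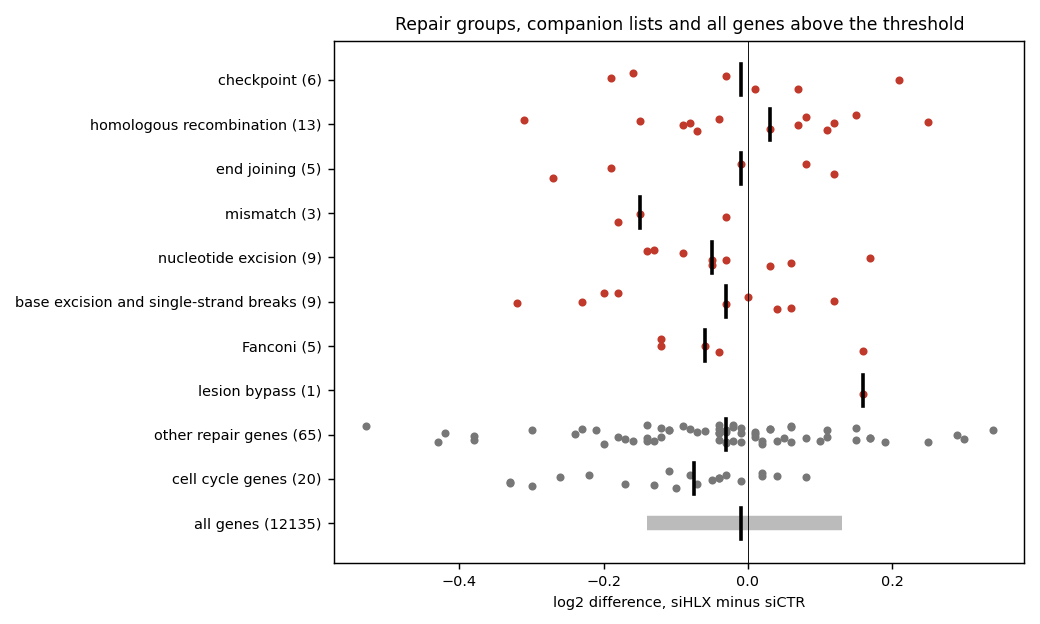
Log2 difference, siHLX minus siCTR (x axis), of the repair groups, 2 companion lists and all genes above the level threshold (y axis, genes measured in parentheses); points are genes, black bars medians, and the grey bar spans the quartiles of all genes, -0.14 to 0.13. Group medians run from -0.15 for mismatch repair to 0.16 for POLH, the only lesion bypass gene; with equal spike controls all medians, that of all genes included, lie above 0.

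A second division of the members was by the cell cycle. Of the 12 measured members known to be transcribed in S phase, 9 were lower, 2 higher (BARD1 and BLM) and LIG1 equal. Their median was -0.085 relative to the bulk of genes. Averaged over their probe sets above the threshold, CHEK1 gave 0.06 and MSH6 0.105, while the rest of these 9 stayed below 0. Of the 39 members outside this S phase list 21 were lower and 18 higher, with a median of -0.03. Among all genes the share lower was 50.1% above the threshold and 51.1% at or above the 75th percentile of level. A list of 20 cell cycle genes set beside the S phase members had 16 lower and 4 higher and a median of -0.075. Its most negative members were CCNA2, the cyclin of S phase and G2, at 10.65 with siHLX and 10.98 with siCTR, and E2F1, a factor of S phase entry, at 7.26 with siHLX and 7.59 with siCTR. The 4 higher genes were the proliferation marker MKI67, at 0.08, and the replication genes MCM2, MCM4 and MCM6, at 0.04, 0.02 and 0.02. The related MCM3, MCM5 and MCM7 had -0.04, -0.11 and -0.22. The arrays read RNA of a whole culture, so fewer cells in S phase and less of these transcripts per cell cannot be told apart, and the part of the cell cycle in the repair readings was not tested. All these counts are relative to the bulk of genes, and equal spike controls add the same amount to every gene counted.

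The 9 members whose promoters held a word of the E2F type, printed above, had no gene higher: 8 were lower and LIG1 was equal, with a median of -0.08 relative to the bulk of genes. They overlap the S phase members, among which 5 of 11 with a promoter held a word. The 36 members without a word had 19 lower and 17 higher and a median of -0.03. Over all genes above the threshold with a promoter, those with a word were lower in 51.2% of 651 and those without in 50.1% of 9174, both with a median of -0.01. The size of the readings was small in the 9 members, from -0.18 for MSH3 and UNG to 0.00 for LIG1. The dimmer probe sets of MSH3 and MSH6 had the other sign. The box CCAAT, bound by NF-Y and sought on both strands, was held by 48.9% of the members and by 43.1% of the genes above the threshold.

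The p53-induced repair genes DDB2, XPC and POLH read -0.05, -0.03 and 0.16, with no common direction. From the list of 72 other genes of the same pathways, 65 were measured above the threshold, of which 40 were lower and 25 higher, with a median of -0.03. The limit of 0.322 log2 units was reached downwards by 5 of the 65 and upwards by 1. The shares were 9.09% and 8.98% of all genes, but 3.49% and 3.07% of those at or above the 75th percentile of level (7.095). The 65 genes had a median of 8.78 on the siHLX array, though some lay below that percentile, SLX4 and XAB2 of the 5 among them. The 65 were not counted at that level alone, so the 5 of 65 has no share of like level beside it. RAD9A, a subunit of the checkpoint clamp, was lowest at 6.94 with siHLX and 7.47 with siCTR. SLX4, a nuclease scaffold, had -0.43, the splicing-linked XAB2 -0.42, and the end processing nuclease DCLRE1C and the glycosylase NEIL2 -0.38 each. TOP3A, the topoisomerase that works with BLM, was highest at 7.83 with siHLX and 7.49 with siCTR. These genes had the same median as the members, and both lists lay 0.02 below the median of all genes.

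The poly-A controls, spiked in before labelling, were lower on the siHLX array by a mean of -0.29 (SD 0.18 over 24 probe sets, 23 of them lower). These probe sets read only the dap, lys, phe and thr transcripts, so they are not independent readings. Scaling both arrays to equal controls moves the median of all genes to 0.28 and that of the repair members to 0.26, with 17 members past 0.322 log2 units upwards. The scaling adds the same amount to every gene, so it changes the zero point and not the place of the members among the genes.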

How the data were processed

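The log2 intensities per probe set had been made by the authors in R (limma, affy) with RMA background correction and quantile normalisation. Package versions are not given in the sources used here. Ratios to the sample mean, which the methods also mention, are not visible in the deposited values. Because quantile normalisation equalises both arrays, a shift common to most transcripts cannot be seen.

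Only probe sets paired with 1 gene in the platform annotation were used (41091 of 54613 that were not controls), and symbols were checked against RefSeq through the Entrez identifier (0 changed). A gene was read by its brightest probe set at or above the median level of 4.865. Levels and differences were computed in Python 3.11.15 with pandas 2.3.3 and tested on simulated data. Named with both readings were the 2 most negative and 2 most positive members of each group, members whose probe sets were of equal sign with a mean of at least 0.2 or disagreed by 0.5 or more, and ATM, ATR, CHEK1, CHEK2, BRCA1, PARP1 and PRKDC. Others are given mainly by their differences. The members, lists and rules were chosen with earlier results of these data known. With 1 array per group no p-value is given, and the number of arrays limits the precision. Alternatives were median centring, lowess (fraction 0.2), a further quantile normalisation, equal poly-A controls, averaging over probe sets, leaving out those with the suffix _s_at or _x_at, no threshold, the 75th percentile, a 1.5-fold limit and, added after the values were seen, a limit of 0.2 log2 units.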

Additional observations from a re-analysis of the deposited data

How the results depend on the processing

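After scaling to equal spike controls the repair members had a median of 0.26, 2 of 51 were lower and 17 lay past 0.322 log2 units upwards; the medians were 0.28 for checkpoint, 0.32 for homologous recombination, 0.28 for end joining, 0.14 for mismatch, 0.24 for nucleotide excision, 0.26 for base excision and 0.23 for Fanconi genes, beside 0.28 for all genes. This scaling adds the same amount to every gene, and the settings below leave it out. Averaged over probe sets, the medians were -0.04 for homologous recombination, 0.005 for mismatch and 0.03 for nucleotide excision genes, and 1 member (XRCC5) lay past 0.322 upwards; without _s_at or _x_at probe sets the checkpoint median was -0.115 and 1 member (XRCC5) lay past it upwards. Quantile normalisation took 1 member (XRCC1) past the limit of 0.322 downwards. At a limit of 0.2 log2 units 5 members were lower and 2 higher. The count of lower members was 29 of 51 with quantile normalisation, 24 of 38 without _s_at or _x_at probe sets and 27 of 45 at the 75th percentile. In the other settings it was 30 of 51. Apart from equal spike controls, the members' median lay between -0.04 and -0.03. Of the 33 named members, 17 changed sign with equal spike controls and 8 when averaged over probe sets. No paired analysis was possible because each group held 1 array. The lack of a second array per siRNA limits every difference given here.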
